A study of Rattus norvegicus with 4 samples.

Results

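The proteasome is the protease that degrades ubiquitin-tagged proteins, and the genes described here encode its standard parts other than the catalytic subunits. They were taken as every row of the gene table whose symbol starts with Psma, Psmb, Psmc, Psmd, Psmf or Psmg and a number, leaving out Psmb5 to Psmb10. This gave 39 of the 17778 gene rows. RNA came from RSC96, an established rat line with Schwann cell as its labelled type, the glial cell that wraps peripheral axons. IL-22 cells received 100 ng/ml recombinant rat IL-22 for 48 h after a night in serum-free medium (2 libraries). Controls had the same serum starvation and only the solvent, 0.1% bovine serum albumin, for a time the labels do not give (2 libraries). The labels do not say whether libraries came from separate cultures, so every p-value speaks to differences among these libraries alone, and that spread may be technical. The cells were of the 4th generation. The Schwann label was checked against markers: Gap43 was listed at 0 in all 4 libraries, Sox10 and S100b at 0 in 3 of 4, and Ngfr stayed under 1 FPKM (fragments scaled by transcript length and library size). Ncam1 had 34.1 and 38.3 FPKM with IL-22, against 23.9 and 24.9 FPKM in controls, and Erbb3 1.51 and 1.62 FPKM with IL-22, against 0.819 and 0.685 FPKM in controls. Both passed the limma test as higher (0.55 each), and the part of this in the results was not tested.

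The core particle is a stack of alpha rings at the ends and beta rings in the middle, where proteins are cut. The alpha subunits form the gate, and the beta subunits Psmb1 to Psmb4 complete the inner rings beside the catalytic ones. A regulatory particle sits on the core. Its base holds a ring of ATPases that unfold substrates, and its lid removes ubiquitin through Psmd14. Dedicated chaperones build the pieces and then leave. Subunits of the core enter it in equal number, and so do those of the regulatory particle. FPKM is scaled by length, so levels can be set side by side across genes, but only roughly. The annotation behind the lengths is not given, and reads of near-identical genes could go to either.

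The members fell into 7 alpha ring subunits, 4 beta ring subunits, 6 base ATPases, 3 other base subunits, 8 lid subunits, 3 core and 3 base assembly chaperones, and the inhibitor Psmf1. A further 2, Psma8 of the testis and Psmb11 of the thymus, are tissue-restricted. Psma8 was listed at 0 in all 4 libraries, and Psmb11 was listed at 0 in 3 and at 0.0754 FPKM in control library 2. The last 2 are no further subunits. Psma3l is a copy or alias of Psma3, since RefSeq now gives that symbol as a synonym of Psma3, and Psmc3ip encodes a factor of meiotic recombination and no proteasome subunit. Psmg3 was not analysed here.

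Of the 39 members 37 passed the minimum mean of 1 FPKM and entered the limma fit across all 9485 tested rows, on log2(FPKM + 1). With IL-22, 2 of the 37 were higher and 21 lower at a limma adjusted p under 0.05, against 27.6% higher and 30.8% lower over all tested rows. As shares, 5.41% of the members were higher and 56.8% lower. The share called in either direction, 62.2%, was near the 58.4% of all rows. Without IL-22 library 2 the members counted as lower were 13, and without control library 2 those counted as higher were 4. In bulk RNA, fewer cells of a kind and less RNA per cell cannot be told apart. Among the 4252 tested rows with means from 20 to 400 FPKM, where most members lie, 26.2% were higher and 38.7% lower. The median difference, IL-22 minus control, was -0.22 over the members and -0.022 over all tested rows. Without Psma3l and Psmc3ip, which are no further subunits, 19 of 35 tested members were lower and 2 higher, with a median of -0.20. Of all 37 members 0 reached an absolute difference of 1 log2 and 8 reached 0.5, sizes for which no share over all rows was taken. Groups did not overlap in 4 members that lay higher and 26 that lay lower, 30 of 37 in all, against 38.4% higher, 41.7% lower and 80.1% in all over the tested rows.

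**Figure D1:**
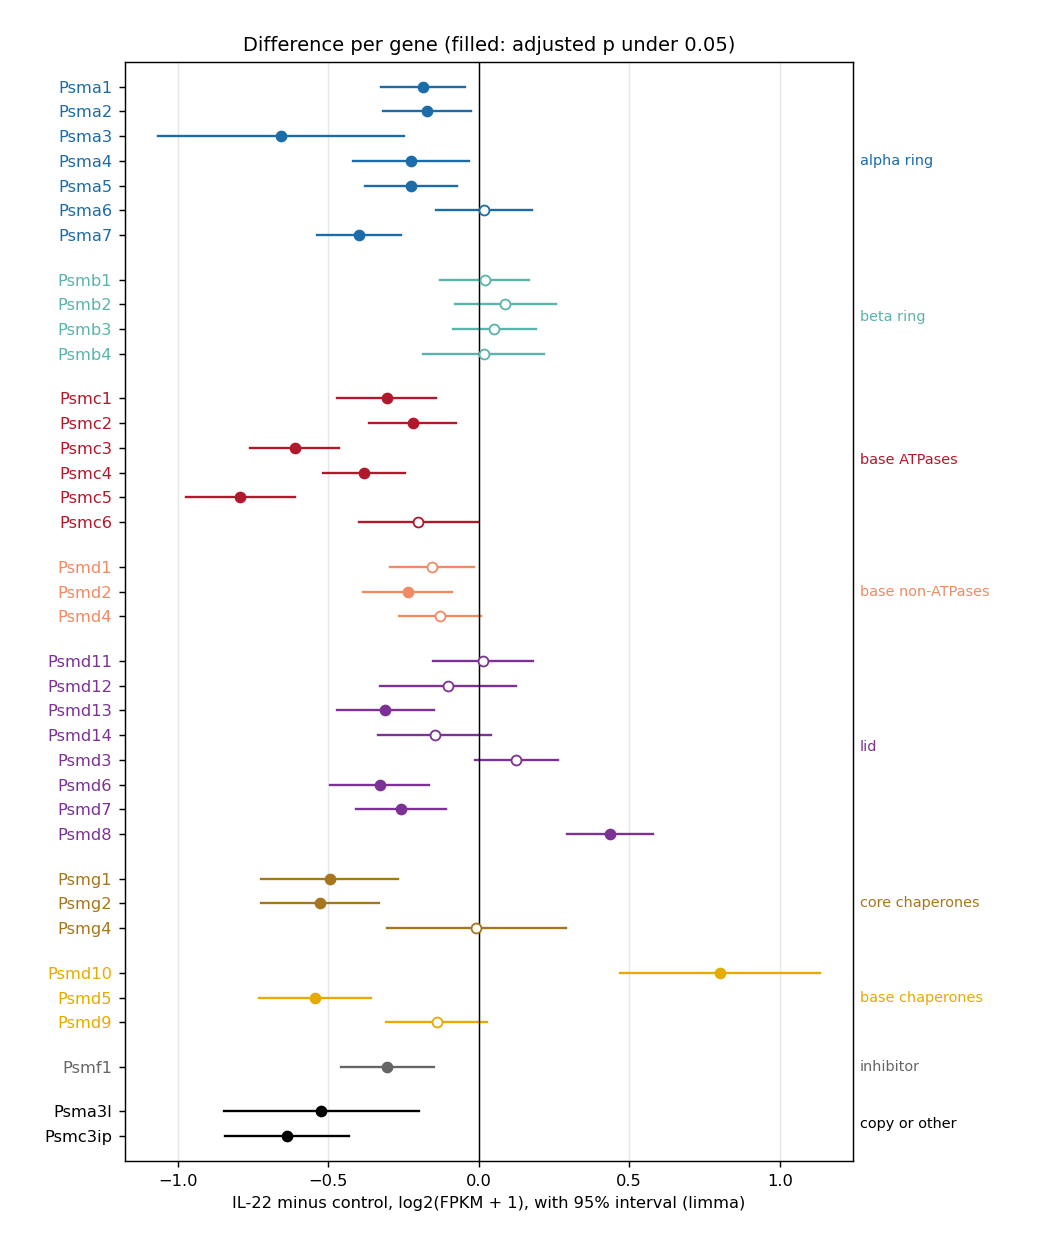
The horizontal axis gives log2(FPKM + 1) in IL-22 cells less that in controls for each of the 37 tested genes, with its 95% interval from limma. Filled points passed an adjusted p of 0.05. Psmd8 and Psmd10 are the only filled points right of 0, and all 4 beta ring genes are open.

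The counts were as follows by substructure, and the difference between substructures was not tested. Of 7 alpha ring genes 6 were lower, of 4 beta ring genes 0 were called, of 6 base ATPases 5 were lower, and of 8 lid genes 3 were lower and 1 higher. Over all tested rows 30.8% were lower, 27.6% higher and 58.4% called either way. Summed over the 6 ATPases, the level was 728 and 718 FPKM in the IL-22 libraries, against 1039 and 976 FPKM in the controls. The alpha ring summed to 886 and 847 FPKM with IL-22, against 1024 and 1012 FPKM in the controls. Both sums were lower in each IL-22 library than in either control library. The beta ring subunits Psmb1 to Psmb4 summed to 996 and 999 FPKM with IL-22, against 978 and 965 FPKM in the controls, and the lid to 777 and 752 FPKM with IL-22, against 782 and 739 FPKM in the controls. Beta ring sums were higher in each IL-22 library than in either control, and lid sums overlapped between the groups. Without Psmd8, which was higher, the lid summed to 598 and 575 FPKM with IL-22, against 647 and 612 FPKM in controls. Those sums did not overlap, as was so for the groups in 80.1% of all tested rows. Psmd8 was left out for its higher values in these same libraries, so this separation is no further evidence.

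Ratios taken within a library do not depend on a single scaling factor per library. The ratio of the ATPase sum to the lid sum was 0.937 and 0.955 in IL-22 libraries, against 1.33 and 1.32 in controls. Without Psmc3, the most abundant ATPase mRNA, it was 0.584 and 0.587 with IL-22, against 0.767 and 0.776 in controls, and without the lid gene Psmd8, which was higher, it averaged 1.23 ± 0.0222 with IL-22, against 1.60 ± 0.00772 in controls (SD, n = 2 each). The ratio of the alpha ring sum to the beta ring sum was 0.890 and 0.849 with IL-22, against 1.05 in each control. In none of these ratios did the groups overlap. They are given as descriptions, because the members were chosen with earlier results known.

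**Figure D2:**
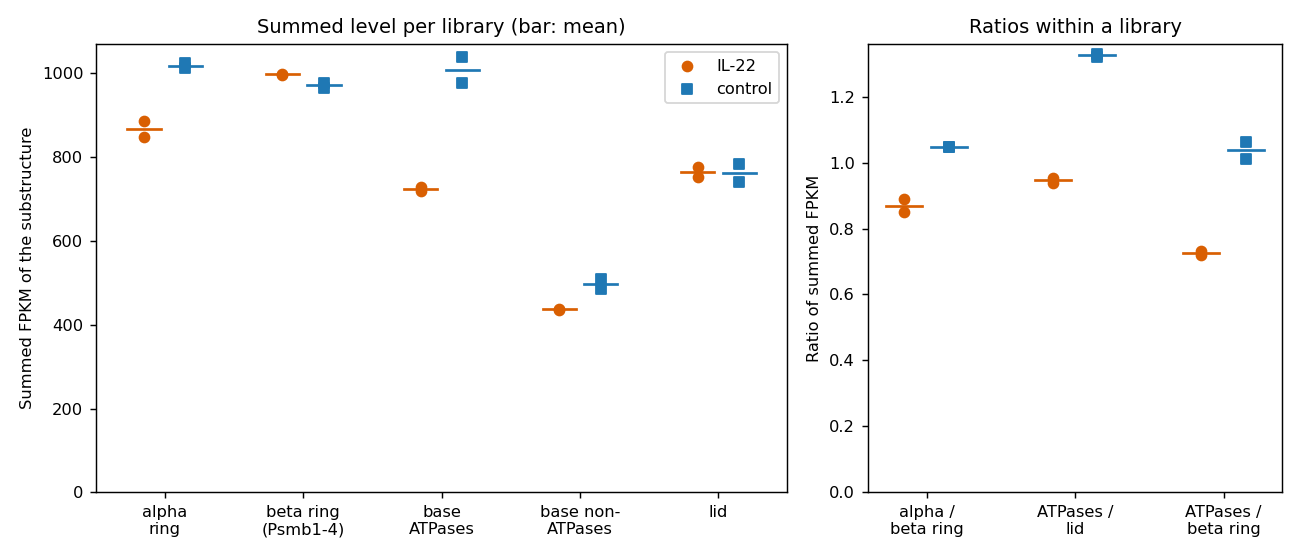
Left, the summed FPKM of each substructure in each library, and right, ratios of these sums within a library; circles are IL-22 libraries, squares are control libraries and bars are means. The ATPase sum averages 723 FPKM with IL-22 and 1008 FPKM in controls, while the lid sums, which include Psmd8, overlap between the groups.

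Promoters are shown for 5 members that carry these contrasts: Psmc5 and Psmc3, which were lower, Psmb2 of the beta ring, which was not called, and Psmd8 and Psmd10, which were higher. Each is the RefSeq window of 250 bases before to 50 after the gene start, 5′ to 3′ on the gene's strand, in assembly GRCr8, which is not the rn5 build of the deposited values. Capitals mark matches on either strand to the antioxidant response element core (TGACNNNGC or TGAGNNNGC), the CCAAT box (CCAAT), the GC box (GGGCGG), an ETS site (CCGGAAGT) or a STAT site (TTCNNNGAA); in Psmb2 and Psmc3 some matches overlap or touch.
Psmc5, chr10:91687303-91687602, plus strand: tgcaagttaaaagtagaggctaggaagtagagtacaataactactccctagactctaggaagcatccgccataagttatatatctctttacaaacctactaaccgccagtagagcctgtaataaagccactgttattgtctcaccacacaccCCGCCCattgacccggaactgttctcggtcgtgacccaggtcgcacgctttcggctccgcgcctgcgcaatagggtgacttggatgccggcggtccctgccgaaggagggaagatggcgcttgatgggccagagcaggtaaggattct
Psmc3, chr3:97487393-97487692, plus strand: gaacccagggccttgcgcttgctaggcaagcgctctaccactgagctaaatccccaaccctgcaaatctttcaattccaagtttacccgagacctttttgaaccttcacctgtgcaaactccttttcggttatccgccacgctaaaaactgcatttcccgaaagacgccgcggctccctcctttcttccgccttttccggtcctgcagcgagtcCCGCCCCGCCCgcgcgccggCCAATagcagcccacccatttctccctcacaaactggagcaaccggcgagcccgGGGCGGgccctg
Psmb2, chr5:144254808-144255107, plus strand: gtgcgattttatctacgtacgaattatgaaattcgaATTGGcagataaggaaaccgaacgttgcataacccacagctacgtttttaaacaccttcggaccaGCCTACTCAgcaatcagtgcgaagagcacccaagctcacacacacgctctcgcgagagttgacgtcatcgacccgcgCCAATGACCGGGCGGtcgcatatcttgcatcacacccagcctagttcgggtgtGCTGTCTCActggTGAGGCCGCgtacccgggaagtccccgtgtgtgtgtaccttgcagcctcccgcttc
Psmd8, chr1:93608640-93608939, minus strand: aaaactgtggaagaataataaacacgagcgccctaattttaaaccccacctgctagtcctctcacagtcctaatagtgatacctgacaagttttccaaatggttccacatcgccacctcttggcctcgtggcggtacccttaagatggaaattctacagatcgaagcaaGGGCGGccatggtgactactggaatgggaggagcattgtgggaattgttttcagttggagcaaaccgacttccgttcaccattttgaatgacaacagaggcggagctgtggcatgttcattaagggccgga
Psmd10, chrX:109453556-109453855, minus strand: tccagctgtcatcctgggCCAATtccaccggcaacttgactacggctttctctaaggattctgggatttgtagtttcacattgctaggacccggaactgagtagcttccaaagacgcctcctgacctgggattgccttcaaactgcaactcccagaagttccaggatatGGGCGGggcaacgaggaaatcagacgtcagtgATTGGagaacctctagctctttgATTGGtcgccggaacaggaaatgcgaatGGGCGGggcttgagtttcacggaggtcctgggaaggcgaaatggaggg

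The antioxidant response element is the sequence through which NRF1, encoded by Nfe2l1, raises proteasome genes when proteasome activity is short, and through which NRF2, encoded by Nfe2l2, acts under oxidative stress. Of the 39 members 33 had a promoter in the table, and 14 of these (42.4%) held its core, against 27.1% of all 33469 promoters and 32.5% of the 7171 promoters matched to tested rows. It stood in 7 of the 18 promoters of lower members, in 0 of the 2 of higher members and in 7 of the 12 of members not called. By substructure it stood in 2 of 6 promoters of the alpha ring, 3 of 4 of the beta ring, 1 of 6 of the base ATPases, 2 of 3 of the other base subunits and 2 of 5 of the lid. Among the rest, 1 of 3 promoters of core chaperones and 2 of 3 of base chaperones held it, as did that of Psmc3ip, while those of Psmf1 and Psma8 did not. In the Psmb2 window it occurred 4 times. CCAAT boxes were in 17 (51.5%) of the member promoters, against 37.5% of all and 38.3% of those of tested rows, and GC boxes in 24 (72.7%), against 33.1% and 66.0%. An ETS site was in 5 (15.2%), against 3.81% of all and 9.65% of tested rows, and a STAT site in 3 (9.09%), against 8.87% and 6.36%. A match describes the letters only and is not evidence of binding.

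The base ATPases unfold the substrate and thread it into the core, and all 6 had lower values in both IL-22 libraries than in either control. Over all tested rows 41.7% lay lower in this way, and in 80.1% the groups did not overlap in either direction. Psmc5 had 66.5 and 71.1 FPKM with IL-22, against 128 and 112 FPKM in controls. It fell to 0.573 of the control mean, the largest fall of any member (-0.79 ± 0.08 SE, limma adjusted p = 4.58e-05). Psmc3 had 274 and 277 FPKM with IL-22, against 439.7 and 403 FPKM in controls. This was the most abundant member in the controls, and it fell to 0.653 of the control mean (-0.61 ± 0.07, limma adjusted p = 6.4e-05). With IL-22 Psmb4 of the beta ring, at 310.3 and 317 FPKM, stood above it in both libraries. Psmc4 had 144 and 141 FPKM with IL-22, against 184 and 188 FPKM in controls (-0.38 ± 0.06, limma adjusted p = 0.000638). Psmc1 fell less, to 0.806 of control (-0.31), and Psmc2 to 0.858 (-0.22). Psmc6, the least abundant ATPase mRNA, had 22.6 and 20.3 FPKM with IL-22, against 23.9 and 25.7 FPKM in controls, and did not pass (limma adjusted p = 0.0772). The median over the 6 was -0.34. Psmc3, Psmc4 and Psmc5 kept their calls under all 13 alternatives, whereas Psmc1 lost its call without IL-22 library 2 (limma adjusted p = 0.0574). Psmc2 lost its call in 4 of the 13, among them the fits lacking control library 1 or any one IL-22 library. Without IL-22 library 2 the ATPase count was 3.

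The other base subunits hold the particle together and receive ubiquitin. All 3 lay lower in both IL-22 libraries than in either control, as did 41.7% of all tested rows. By limma 1 passed, against 30.8% called lower over all tested rows. Psmd2, a large scaffold subunit, had 199 FPKM in each IL-22 library, against 245 and 224 FPKM in controls (-0.24 ± 0.07, limma adjusted p = 0.0127), a call lost without the trend, without IL-22 library 1 and without IL-22 library 2. Psmd1, the other scaffold, had 92.2 and 91.2 FPKM with IL-22, against 103 and 101 FPKM in controls (limma adjusted p = 0.0569). Psmd4, a ubiquitin receptor, had 145 and 148 FPKM with IL-22, against 161 and 159 FPKM in controls (limma adjusted p = 0.096). Neither Psmd1 nor Psmd4 passed (Psmd1 did without the filter, limma adjusted p = 0.0412), and their 95% intervals ran from -0.29 to -0.015 and from -0.26 to 0.0080. The base subunit Adrm1, which the naming rule does not take and which also receives ubiquitin, was at 152 and 148 FPKM with IL-22, against 182 and 173 FPKM in controls, and fell (-0.24 ± 0.06, limma adjusted p = 0.00871).

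The alpha ring gates the core, and 6 of its 7 genes fell, by small amounts apart from Psma7 and Psma3. Psma7 had 224 and 230.2 FPKM with IL-22, against 307 and 292 FPKM in controls (-0.40 ± 0.06, limma adjusted p = 0.000549). It was the only alpha ring call that held under all 13 alternatives. Psma1 (-0.19), Psma2 (-0.17), Psma4 (-0.22) and Psma5 (-0.22) came to between 0.855 and 0.888 of the control mean, with limma adjusted p from 0.0187 to 0.0473. Each of these 4 lost its call in at least 4 of the 13 alternatives, and the ring's count of 6 became 2 without the trend, 1 without control library 1, 2 without control library 2, 4 without IL-22 library 1 and 2 without IL-22 library 2, and 3 without the filter or with either other scaling. Psma6 had 123 and 111 FPKM with IL-22, against 113 and 118 FPKM in controls (0.016, 95% interval from -0.14 to 0.18), and its groups overlapped.

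Psma3 read far below its ring, at 4.74 and 3.26 FPKM with IL-22, against 8.03 and 5.73 FPKM in controls. Psma3l had 27.0 and 24.6 FPKM with IL-22, against 44.9 and 31.3 FPKM in controls. Both rows passed the test as lower (-0.66 and -0.52, limma adjusted p = 0.012 and 0.0118), and both lost the call without control library 1 and without the filter. Because reads of such near-identical rows could go to either, the level of each is uncertain. Their sum was 31.7 and 27.9 FPKM with IL-22, against 53.0 and 37.0 FPKM in controls, still below every other alpha ring gene in each library.

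The beta ring subunits Psmb1 to Psmb4 were the most even group in level and the one with no called change. Psmb1 had 261 and 246 FPKM with IL-22, against 243 and 258 FPKM in controls. Psmb2 had 222 and 226 FPKM with IL-22, against 197 and 225 FPKM in controls, and Psmb3 202 and 210.2 FPKM with IL-22, against 196 and 201 FPKM in controls. Psmb3 was the only one whose groups did not overlap. Psmb4 had 310.3 and 317 FPKM with IL-22, against 342 and 281 FPKM in controls, so that its control libraries enclosed both IL-22 values. By limma 0 of the 4 passed, and 0 had an unadjusted p under 0.05, with differences from 0.016 to 0.088. The 95% intervals of the 4 differences together ran from -0.19 to 0.26, so differences up to that size could be there. The call count was 0 under 12 of the 13 alternatives, and Psmb2 was called higher without control library 2 (0.18, limma adjusted p = 0.0435).

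Of the catalytic beta subunits, which the rule leaves out, Psmb5 had 176 and 192 FPKM with IL-22, against 273 and 234 FPKM in controls, and fell (-0.45 ± 0.08, limma adjusted p = 0.0016), while Psmb6 (0.028) and Psmb7 (-0.11) did not pass. The immune forms Psmb8 (-0.99), Psmb9 (-0.38) and Psmb10 (-2.87) were all lower.

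**Figure D3:**
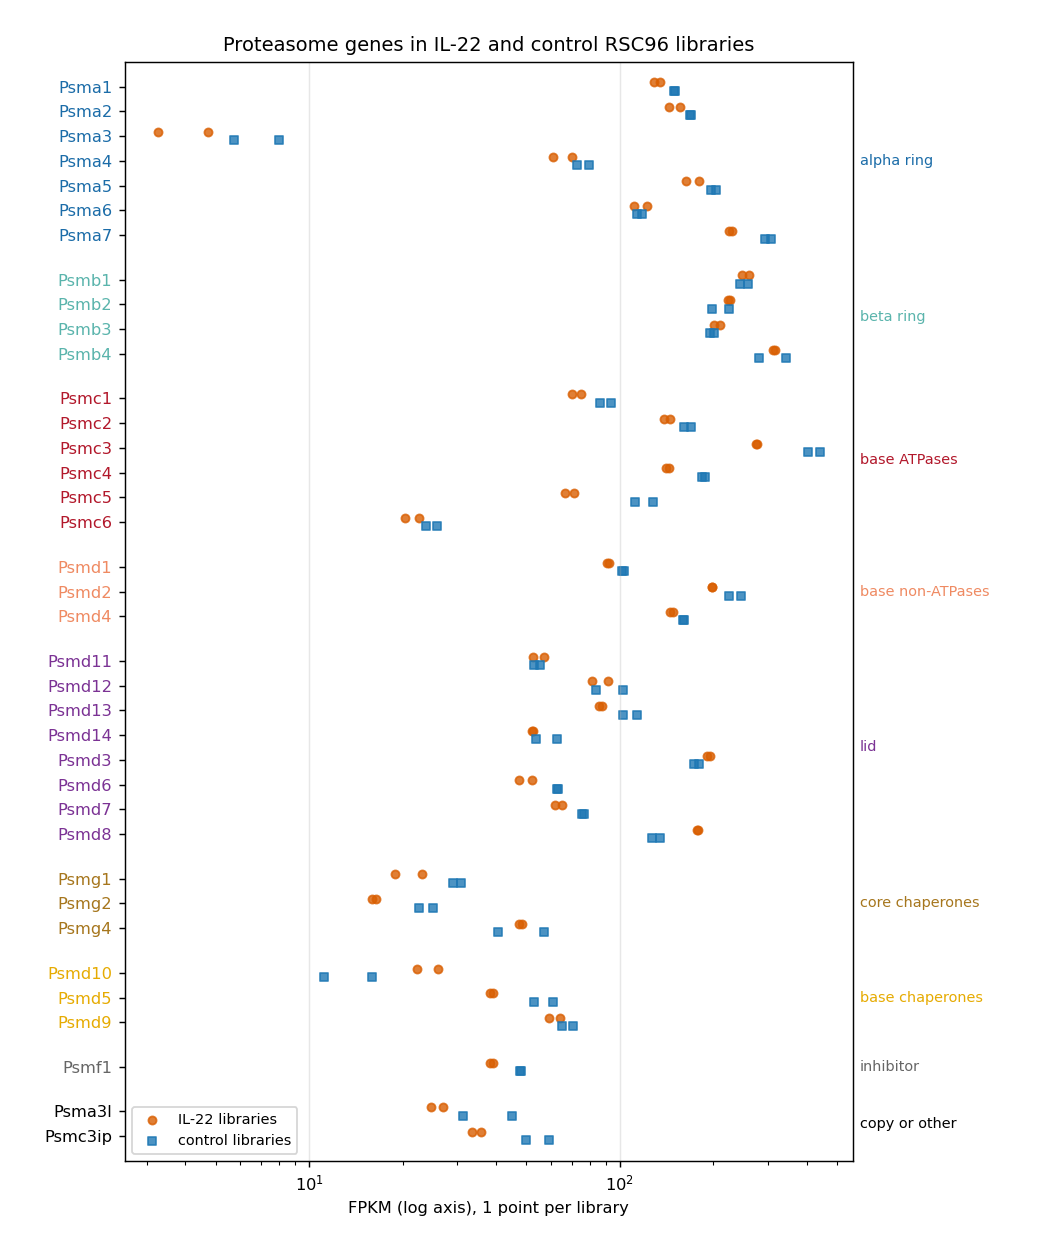
Each row is a gene and each point a library, on a log axis of FPKM; circles are IL-22 libraries and squares control libraries. Psmc5 and Psmc3 show IL-22 points well left of the control points, Psmd8 and Psmd10 show them to the right, and the beta ring points lie close together.

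The lid strips ubiquitin from substrates. Of its 8 genes 3 were lower and 1 higher, against 30.8% lower and 27.6% higher over all tested rows. Psmd8, in yeast the last subunit to join the lid, had 179 and 177 FPKM with IL-22, against 135 and 127 FPKM in controls. It rose 1.36-fold (0.44 ± 0.06, limma adjusted p = 0.000368), alone among the 28 core, base and lid genes. Psmd3 also lay higher in both IL-22 libraries, at 195 and 191 FPKM against 174 and 180.2 FPKM in controls, but did not pass (limma adjusted p = 0.107). The structural lid genes Psmd6 and Psmd13 and Psmd7, the inactive partner of Psmd14, fell, to 0.793, 0.804 and 0.834 of the control mean (-0.33, -0.31 and -0.26, limma adjusted p = 0.00398, 0.00482 and 0.00843). Psmd6 lost its call without IL-22 library 2 (limma adjusted p = 0.0533) and Psmd7 without IL-22 library 1 (limma adjusted p = 0.0928). Psmd14, the lid's deubiquitinase, had 52.7 and 52.0 FPKM with IL-22, against 62.6 and 53.9 FPKM in controls, and did not pass (limma adjusted p = 0.155), although it did without control library 2 (-0.25, limma adjusted p = 0.0293). The lid's count of lower genes was 2 without IL-22 library 1 and 2 without IL-22 library 2. The structural genes Psmd11 (57.2 and 52.4 FPKM with IL-22, 55.4 and 53.0 FPKM in controls) and Psmd12 (91.3 and 81.6 FPKM with IL-22, 103 and 83.8 FPKM in controls) overlapped between groups. The lid's median difference of -0.13 became 0.00042 without control library 1. Psmd8 relative to Psmc5, a ratio within a library, was 2.69 and 2.49 with IL-22, against 1.05 and 1.14 in controls. Psmd8 was called higher and Psmc5 lower in these libraries, so their ratio restates those differences and is no further evidence.

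Of the 6 tested assembly chaperones 3 were lower and 1 higher, against 30.8% lower and 27.6% higher over all tested rows. For the core, PSMG1 and PSMG2 form the pair that starts the alpha ring. Psmg1 had 23.1 and 18.9 FPKM with IL-22, against 30.8 and 29.0 FPKM in controls (-0.49 ± 0.10, limma adjusted p = 0.00253). Psmg2 had 16.4 and 16.0 FPKM with IL-22, against 22.5 and 25.0 FPKM in controls (-0.53 ± 0.09, limma adjusted p = 0.000765). Both partners fell by a similar amount, although Psmg1 lost its call without control library 1 (limma adjusted p = 0.0567). Psmg4, another core chaperone, had 48.6 and 47.3 FPKM with IL-22, against 40.7 and 57.1 FPKM in controls, and its control libraries enclosed both IL-22 values. Its difference of -0.0076 was called lower without control library 1 (-0.25) and higher without control library 2 (0.23), so that 1 library decided its sign.

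For the base, 3 chaperones each hold a pair of ATPases during assembly. By limma 1 was higher, 1 lower and 1 did not pass, against 27.6% higher and 30.8% lower over all tested rows. Psmd10 encodes gankyrin, which binds Psmc4 and is also known as an oncoprotein that binds the retinoblastoma protein and MDM2. It had 22.3 and 25.9 FPKM with IL-22, against 11.2 and 15.9 FPKM in controls. It rose 1.78-fold, about as far as Psmc5 fell (0.80 ± 0.15, limma adjusted p = 0.00142), with values from 0.56 to 1.04 when a library was left out. Psmd5 had 39.0 and 38.3 FPKM with IL-22, against 60.9 and 52.9 FPKM in controls, and fell (-0.54 ± 0.08, limma adjusted p = 0.000479). Psmd9 had 59.1 and 64.0 FPKM with IL-22, against 70.5 and 65.3 FPKM in controls, and did not pass (limma adjusted p = 0.134). The within-library ratio of Psmd10 to Psmd5 was 0.572 and 0.678 with IL-22, against 0.184 and 0.301 in controls. As 1 was called higher and the other lower, this ratio too only restates their differences. Psmd10 and Psmd5 kept their calls under all 13 alternatives.

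Psmf1, whose protein PI31 binds and in vitro inhibits the core, had 39.0 and 38.3 FPKM with IL-22, against 47.8 and 48.2 FPKM in controls, and fell (-0.30 ± 0.07, limma adjusted p = 0.00435). Psmc3ip, which encodes no proteasome subunit, had 35.7 and 33.5 FPKM with IL-22, against 59.2 and 49.8 FPKM in controls (-0.64 ± 0.09, limma adjusted p = 0.000348).

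**Figure D4:**
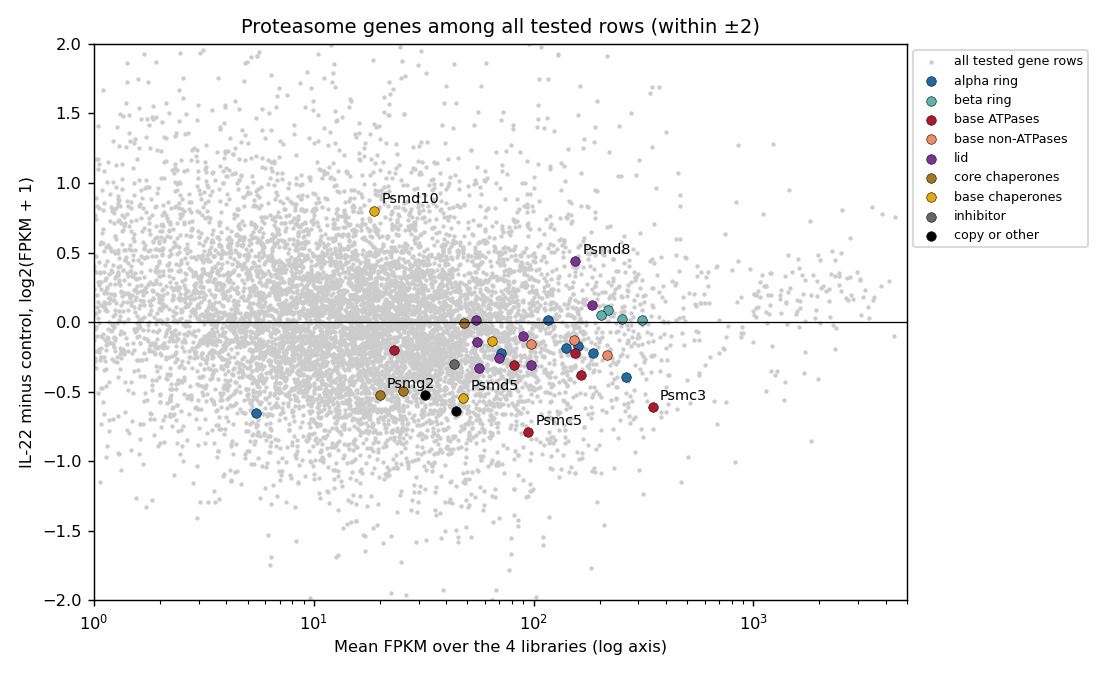
The horizontal axis is the mean FPKM of the 4 libraries on a log scale and the vertical axis log2(FPKM + 1) in IL-22 cells less that in controls; grey points are tested rows and coloured points the members. The frame leaves out 83 rows beyond 2 log2 or 5000 FPKM. Of the 37 members 28 lie below 0, against 51.9% of all tested rows.

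As read by FPKM, which compares genes only roughly, the mRNAs of these subunits were far from equal in level. Across the 28 core, base and lid genes the coefficient of variation was 58.4% and 60.3% in IL-22 libraries, against 62.8% and 60.6% in controls. These 28 include Psma3, whose own level is uncertain, and leave out Psma3l. Within the beta ring it was 19.2% and 18.8% with IL-22, against 28.1% and 14.6% in controls, and among the ATPases 73.1% and 74.9% with IL-22, against 82.4% and 80.4% in controls. The highest ATPase, Psmc3, stood 12.1 and 13.6 times above the lowest, Psmc6, with IL-22, and 18.4 and 15.7 times above it in controls. In the beta ring the highest stood 1.54 and 1.51 times above the lowest with IL-22, and 1.75 and 1.39 times in controls. The assembly chaperones were lower than most subunits they build, with a median of group means of 31.4 FPKM with IL-22 and 39.4 FPKM in controls.

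Other genes of the pathway were read from lists, whose counts stand against 27.6% higher, 30.8% lower and 58.4% called either way over all tested rows. Among subunits and assembly factors outside the naming rule, Adrm1 was lower and the other 3 of 4, the lid peptide Shfm1 (90.4 and 84.4 FPKM with IL-22, 101 and 87.0 FPKM in controls), the core maturation factor Pomp (164 and 133 FPKM with IL-22, 171 and 163 FPKM in controls) and the nuclear import factor Akirin2 (47.7 and 46.1 FPKM with IL-22, 46.2 and 44.1 FPKM in controls), did not pass. Of 11 tested activators and proteasome-bound factors 4 were lower and 0 higher by limma, with 5 at an unadjusted p under 0.05, led by the nuclear activator Psme3 (37.8 and 34.9 FPKM with IL-22, against 65.6 and 66.5 FPKM in controls, -0.85), the deubiquitinase Usp14 (-0.56) and Psme2 (-0.55). The share called lower was near that of all rows, and Psme4 (-0.095) did not pass. Of 14 tested ubiquitin and shuttle genes 7 were lower and 1 higher, a share called near that of all rows. The shuttle Ubqln4 (38.2 and 41.2 FPKM with IL-22, against 69.1 and 71.3 FPKM in controls, -0.81), the segregase cofactor Ufd1l (-0.78) and Ubqln2 (-0.54) differed most. The medians of these lists were -0.14, -0.095 and -0.20, against -0.022 over all tested rows.

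Of 11 tested regulators of proteasome genes 5 were higher and 2 lower, against 27.6% higher and 30.8% lower over all tested rows, and the share called either way was near the 58.4% of all rows. Nfe2l2, which encodes NRF2, had 121 and 109.9 FPKM with IL-22, against 67.2 and 74.4 FPKM in controls, and rose (0.69 ± 0.08, limma adjusted p = 8.15e-05). Its small partner Maff rose by 1.04, and the CCAAT-binding subunits Nfyc (-0.82) and Nfya (-0.79) fell. Among 5 antioxidant response element target genes 2 were higher and 2 lower: Nqo1 (-0.66) and Gclm (-0.55) fell, while Hmox1 (0.30) and Sqstm1 (0.26) rose. Nfe2l1 was not analysed here.

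**Figure D5:**
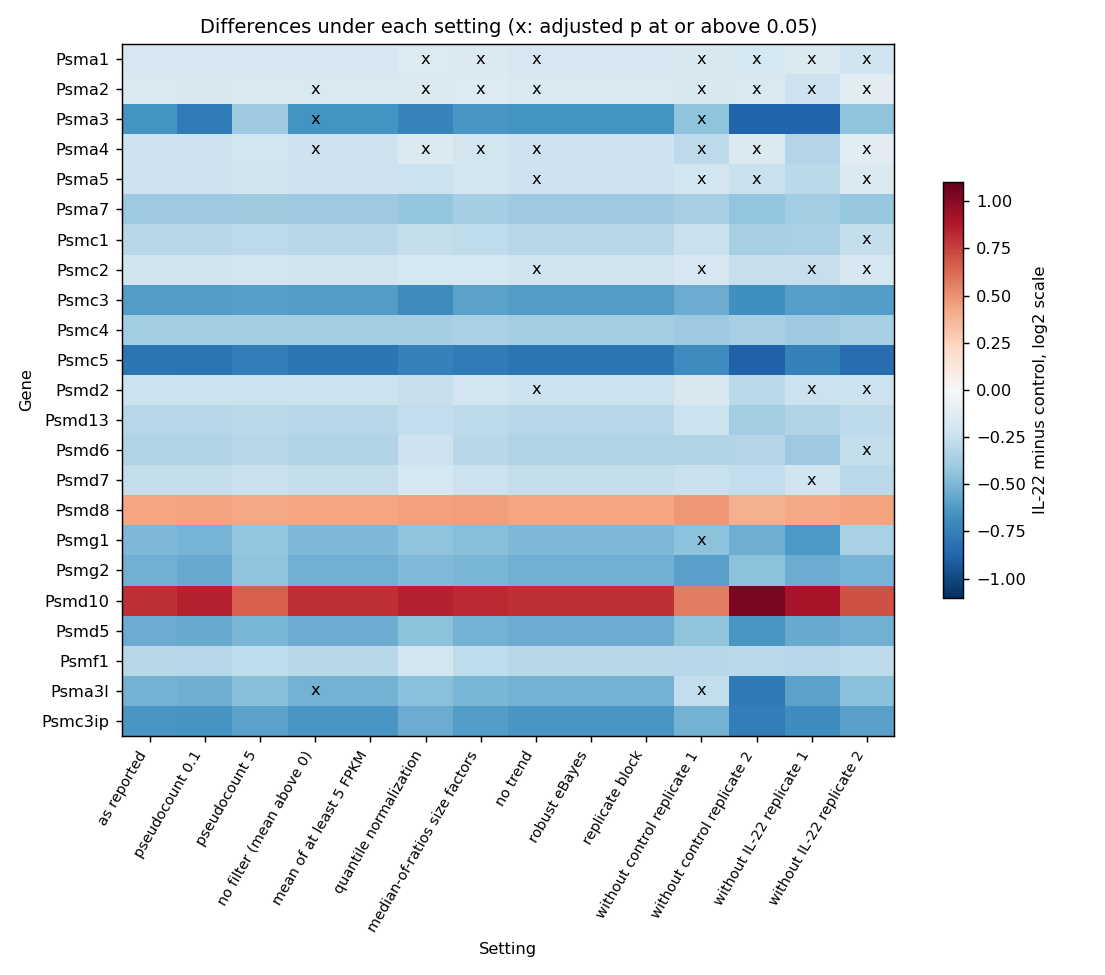
Rows are the 23 members past the threshold and columns the settings of the fit; colour gives the log2 difference between IL-22 and control, and a cross marks an adjusted p at or above 0.05. Psma2 has 8 crosses, Psma1 and Psma4 have 7 each, Psma5 and Psmc2 have 4 each and Psmd2 has 3, and 11 of the 23 rows have none.

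Of the 23 called members 11 kept their call under all 13 alternatives: Psma7, Psmc3, Psmc4, Psmc5, Psmd13, Psmg2, Psmd5, Psmf1 and Psmc3ip as lower, and Psmd8 and Psmd10 as higher. Depth, read from the spacing of low values, was 1.08 in both IL-22 libraries and 1.28 in control library 2, relative to control library 1. Summed FPKM were 658909 and 669549 with IL-22, against 636818 and 630119 in controls, and the members held 0.627% and 0.607% of the sum with IL-22, against 0.741% and 0.722% in controls. Of 3 macrophage markers Cd68 (0.998 and 0.775 FPKM with IL-22, 1.56 and 1.21 FPKM in controls) and Cd14 (4.61 and 2.47 FPKM with IL-22, 2.22 and 2.16 FPKM in controls) did not pass, and Aif1 was listed at 0 in all 4. Of 3 fibroblast markers Col1a1 was lower (-0.55), Pdgfra higher (0.33) and Dcn listed at 0 in all 4.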

How the data were processed

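The authors deposited FPKM for each gene, with a column for each library. The submitters' processing notes name TopHat2, Cuffdiff and the build rn5; for versions, annotation, strand and scaling the sources used here give nothing. FPKM are not counts, so testing used log2(FPKM + 1) and was limited to the 9485 rows averaging 1 FPKM or more over the 4 libraries. The model was limma 3.58.1 (R 4.3.3) with no covariate and moderated variances that follow the mean level; p-values were two-sided, adjusted over all tested rows by Benjamini-Hochberg and called under 0.05. This scale understates changes of low genes. A fold is the mean FPKM with IL-22 over that of controls, and ± is the limma standard error unless SD is named. An exact permutation test of 2 against 2 cannot go below p = 0.333. Without absolute depth there are no counting intervals, and without strand overlapping genes cannot be told apart. Every member is described, with the 3 largest called differences of each other list (or its 2 highest genes) and a few fixed genes; others of small lists were named after their values were seen. Members, lists and tests were chosen with earlier results of these data known. Promoters came from RefSeq (GRCr8). The fit was tested on simulated data with 50 rows changed at each size. It recovered 44% of the changes of 1.25-fold and 90% of those of 1.5-fold, with 9 false calls. Far fewer rows were changed there than the 5537 called here. The simulated noise followed the mean level alone, so no row had a spread of its own. Recovery and false calls in these data may therefore differ. Alternatives were 13 other settings. The lncRNA table was not used. A few genes of the lists are not reported here. Figures used Python 3.11.15 and matplotlib 3.10.9.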

Additional observations from a re-analysis of the deposited data

How the results depend on the processing

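The counts of members higher (2) and lower (21) with IL-22 were 2 and 21 with the replicate number as a block; the number only names libraries, as the deviations of same-numbered libraries correlated at -0.0020. Leaving out a library gave 2 to 4 higher and 13 to 18 lower (4 without control library 2; 13 without IL-22 library 2, where 25.5% of all rows were lower). The other alternatives gave 2 higher and 15 to 21 lower. Member differences changed sign in 7 members, none past the threshold. Under quantile normalization Psmb4 was at -0.014 and Psmg4 at 0.090, and with median-of-ratios size factors Psmg4 was at 0.017. With a library left out, the ranges were Psma6 -0.054 to 0.086, Psmb1 -0.024 to 0.063, Psmb2 -0.0071 to 0.18, Psmb4 -0.13 to 0.16, Psmd11 -0.047 to 0.077, Psmd12 -0.25 to 0.042 and Psmg4 -0.25 to 0.23; the cause was not tested. Over all members and alternatives 41 differences lost the call and 4 gained one in the same direction. A group reduced to a single library was given the spread of the group that kept both. Depth is known only as a ratio between libraries, so no floor can be given for Psma8 and Psmb11, listed at or near 0.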
